A study of Homo sapiens with 44 samples.

Results

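Interferon-α (IFNα) was compared with no cytokine in Ccd-18Co, a fibroblast line from human colon, by bulk RNA sequencing. The comparison was chosen by its labels alone: the 4 libraries labelled IFNA and the 4 labelled unstimulated, 8 of the 44 libraries of a series that tested 10 cytokines one at a time. Both groups were kept without serum for 72 h. The IFNA cultures then received 10 ng/ml of IFNα (the labels do not name the subtype) for 24 h in medium without serum and the unstimulated cultures received no cytokine. The 4 IFNG libraries, which received interferon-γ (IFNγ) at the same dose for the same time, served only to show where the 2 interferons differed. Everything described here comes from 1 cell line grown in small wells, and no label says that the 4 replicates of a group were separate cultures, so p-values measure the spread between these libraries, which may be technical.

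Type I interferons such as IFNα bind the receptor pair IFNAR1 and IFNAR2, and the kinases JAK1 and TYK2 then phosphorylate transcription factors of the STAT family, among them STAT2. Together with IRF9 these bind the interferon-stimulated response element (ISRE) in the promoters of antiviral genes. IFNγ acts through its own receptor and mainly through STAT pairs that bind a different element, GAS, and it is the classical inducer of MHC class II.

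Libraries held between 1354826 and 1801104 assigned reads with IFNα and between 1365019 and 1725354 without cytokine. Levels are given in CPM, that is, as counts relative to the scaled total of their library, and 3 reads correspond to between 1.47 and 2.38 CPM in these 8 libraries. Of 10 fibroblast markers, all 10 passed the filter on low counts, and their summed level lay between 27016 and 35162 CPM with IFNα and between 29285 and 41327 CPM without. CDH1, KRT20 and MUC2 of epithelium, PECAM1, KDR and CLDN5 of endothelium, and CD3E and ITGAM of leukocytes had no read in any of the 8 libraries. CD68, a lysosomal protein used as a macrophage marker, was the only 1 of 7 leukocyte markers to pass the filter. It measured 7.34, 0.729, 0 and 3.42 CPM without cytokine and 73.8, 68.5, 58.0 and 36.1 CPM with IFNα, and it rose (edgeR adjusted p = 3.43e-05). The other 6, PTPRC and CD14 among them, had between 0 and 4 reads in each of the 8 libraries. In bulk RNA, fewer cells of a type and less RNA per cell cannot be told apart.

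IFNα moved about as many genes up as down, and more of the rises than of the falls were large. At an adjusted p under 0.05 (edgeR quasi-likelihood test over 9513 genes), 475 genes rose, or 4.99% of those tested, and 462 genes fell, or 4.86%. With a further threshold of 1.5 on the absolute log2 fold change, 234 genes (2.46%) were upregulated and 145 genes (1.52%) were downregulated. In the text, "rose" and "fell" refer to the adjusted p alone. The 234 upregulated genes took between 1.13% and 1.31% of the reads of each unstimulated library and between 11.5% and 12.2% of the reads of each IFNα library. The 145 downregulated genes went from between 0.958% and 1.06% to between 0.245% and 0.264%. These shares describe genes chosen by the same contrast and are no test of it. Protein-coding genes made up 96.2% of the upregulated genes with a GENCODE 44 annotation and 95.6% of all tested genes with one.

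The 12 largest rises belonged mostly to genes that were silent or nearly silent in unstimulated cells. RSAD2, which encodes viperin, an enzyme that makes a chain-terminating nucleotide, had no read in any unstimulated library and 796, 742, 736 and 695 CPM with IFNα (edgeR adjusted p = 5.46e-14). OAS1, a sensor of double-stranded RNA, went from 0 in all 4 unstimulated libraries to 507, 475, 442 and 344 CPM. Against a floor of 3 reads per library, OAS1 was at least 226-fold higher, OASL at least 59.8-fold higher and OAS2 at least 51.3-fold higher. All 3 were above every unstimulated library in every IFNα library, with edgeR adjusted p of 1.13e-12, 3.83e-06 and 1.92e-10. IFI27 measured 0.490, 0, 0 and 0.683 CPM without cytokine and 908, 724, 786 and 779.6 CPM with IFNα. For IFI44L the values were 0, 2.19, 0 and 0 CPM and then 826, 924, 1151 and 1305 CPM, and for its neighbour IFI44 they were 0, 1.46, 0 and 0 CPM and then 207, 211, 352 and 329 CPM. None of these groups overlapped. USP18, the protease that removes ISG15 from proteins and restrains the type I receptor, had 0.979, 0, 0 and 0 CPM and then 247, 299, 220.1 and 207 CPM. Because 3 or fewer reads stand on the unstimulated side of IFI27, IFI44L, IFI44 and USP18, no fold is given for them.

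**Figure D1:**
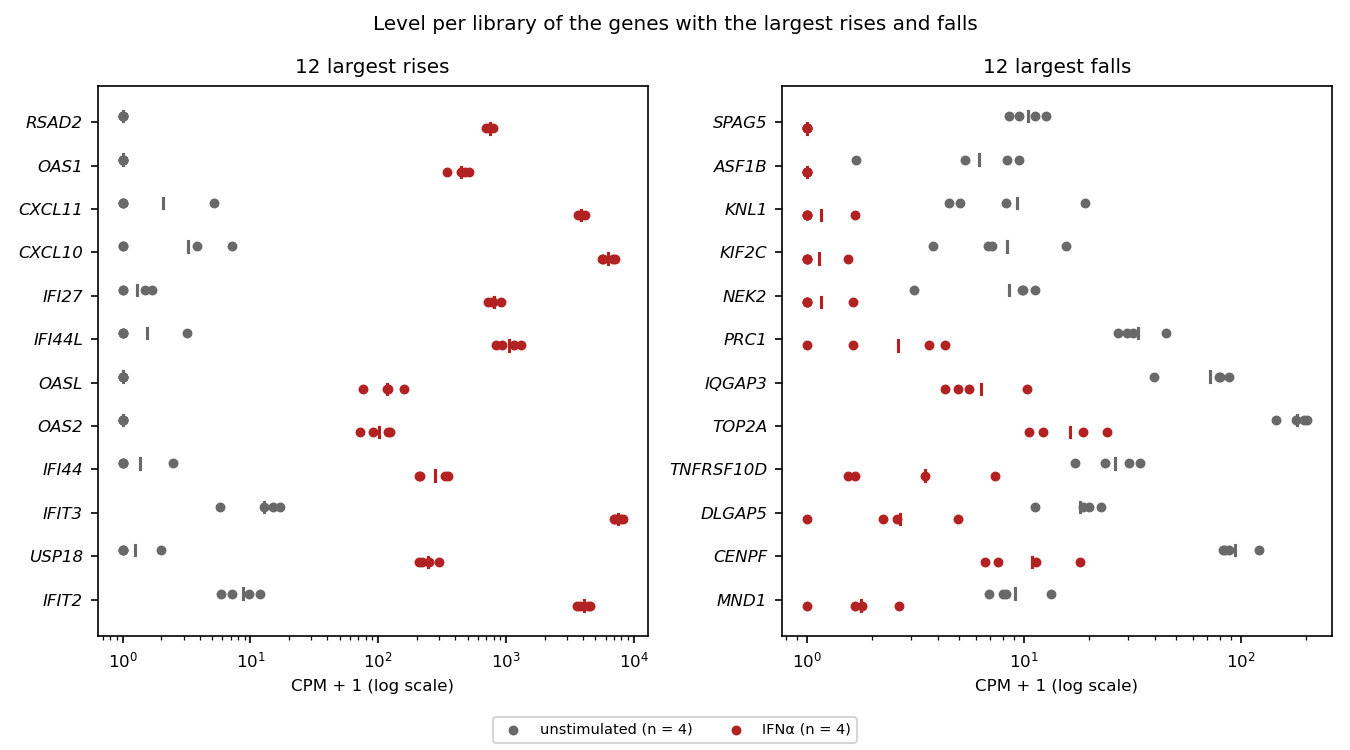
Level of the 12 genes with the largest rises (left) and the 12 with the largest falls (right) in each library, as CPM + 1 on a log scale, with short vertical bars for the mean of the 4 libraries (grey, unstimulated; red, IFNα). From OAS2, with the lowest mean with IFNα (100.3 CPM), to IFIT3, with the highest (7555 CPM), the rising genes start at or near 0 except IFIT3 and IFIT2, and the falling genes lie at or near 0 with IFNα except TOP2A, CENPF and IQGAP3.

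In absolute level, most of the 10 greatest gains were in genes with some reads already present, but CXCL10 and CXCL11 were at or near 0 without cytokine. IFIT1, which binds viral RNA lacking host cap marks, measured 44.6, 88.9, 85.1 and 67.6 CPM in the 4 unstimulated libraries and 14475, 14702, 16576 and 16304 CPM in the 4 IFNα libraries, a log2 fold change of 7.77 ± 0.55 (SE, edgeR adjusted p = 2.51e-15). B2M, the light chain of MHC class I, went from 2670.1, 2403, 2481 and 2672 CPM to 15967, 14137, 13687 and 14518 CPM, 5.70-fold (edgeR adjusted p = 2.05e-19). Such folds come from the fitted log2 change and can differ slightly from the ratio of the means. The IFNα libraries lay far above the unstimulated ones in both cases and spread little among themselves. IFI6, a small membrane protein, had the widest spread relative to its mean of the 10 greatest gains, at 4783, 7089.8, 7333 and 12572 CPM with IFNα against 14.7, 22.6, 26.0 and 19.8 CPM without. Also among the 10 were IFIT3 (11.7 to 7555 CPM), IFIT2 (7.71 to 4062 CPM), IFITM1 (106 to 5940.5 CPM), the chemokines CXCL10 and CXCL11, GBP1 and TNFRSF11B. TNFRSF11B encodes osteoprotegerin, a soluble decoy receptor for the bone-resorption ligand RANKL, and rose 3.20-fold, from 1334, 1398, 1769.5 and 1764 CPM to 4846, 4263, 5409 and 5535 CPM.

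The ISRE core was searched in RefSeq promoters (GRCh38.p14, from 250 bases before the annotated start to 50 bases after it) as GAAA, any 2 bases, GAAA, on both strands. It stood in 54 of the 176 promoters found for the 234 upregulated genes, or 30.7%, in none of the 111 found for the 145 downregulated genes, and in 3.05% of the 7824 found for all tested genes. Of all 27305 promoters in the RefSeq set 3.65% held it. Of 202 genes that rose by less than the fold threshold, 9 (4.46%) held the core. The GAS pattern, TTC, any 3 bases, GAA, was present in 25 promoters of upregulated genes (14.2%), in 10 of downregulated genes (9.01%) and in 7.06% of all tested genes, and matches to the 2 patterns may overlap. In 44 upregulated genes the core lay wholly before the start, at a median of 60 bases from it. Genes among the largest rises and gains whose promoter held the core are shown with up to 10 bases on either side of the match nearest the start, read on the gene's strand, with the core in capitals. CXCL9, which IFNα did not raise past the test and IFNγ left higher, is added for comparison.
IFIT1 (chr10:89392510-89392539, plus strand): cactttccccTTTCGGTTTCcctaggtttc
IFIT3 (chr10:89327865-89327894, plus strand): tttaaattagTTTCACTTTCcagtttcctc
IFI6 (chr1:27672266-27672295, minus strand): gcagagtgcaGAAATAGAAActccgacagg
IFI27 (chr14:94110631-94110660, plus strand): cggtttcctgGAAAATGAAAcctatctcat
IFI44L (chr1:78620365-78620394, plus strand): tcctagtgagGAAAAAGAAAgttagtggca
IFI44 (chr1:78649761-78649788, plus strand): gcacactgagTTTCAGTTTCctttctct
IFITM1 (chr11:313990-314019, plus strand): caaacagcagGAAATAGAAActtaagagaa
B2M (chr15:44711369-44711398, plus strand): ctaagaaaagGAAACTGAAAacgggaaagt
GBP1 (chr1:89065316-89065345, minus strand): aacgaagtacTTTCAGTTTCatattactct
CXCL10 (chr4:76023699-76023728, minus strand): tcatgttttgGAAAGTGAAAcctaattcac
CXCL9 (chr4:76007661-76007690, minus strand): ccatttatgtGAAATGGAAAtaaaaacatg
In IFIT1, IFIT3, IFI44 and GBP1 the core reads on the opposite strand, so the capitals show its complement in reverse. No core lay in the windows of RSAD2, OAS1 and CXCL11, which says only that these letters are absent there. The promoters of OASL, OAS2, USP18 and IFIT2 were not analysed here. A match is a description of the letters and not a binding site.

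**Figure D2:**
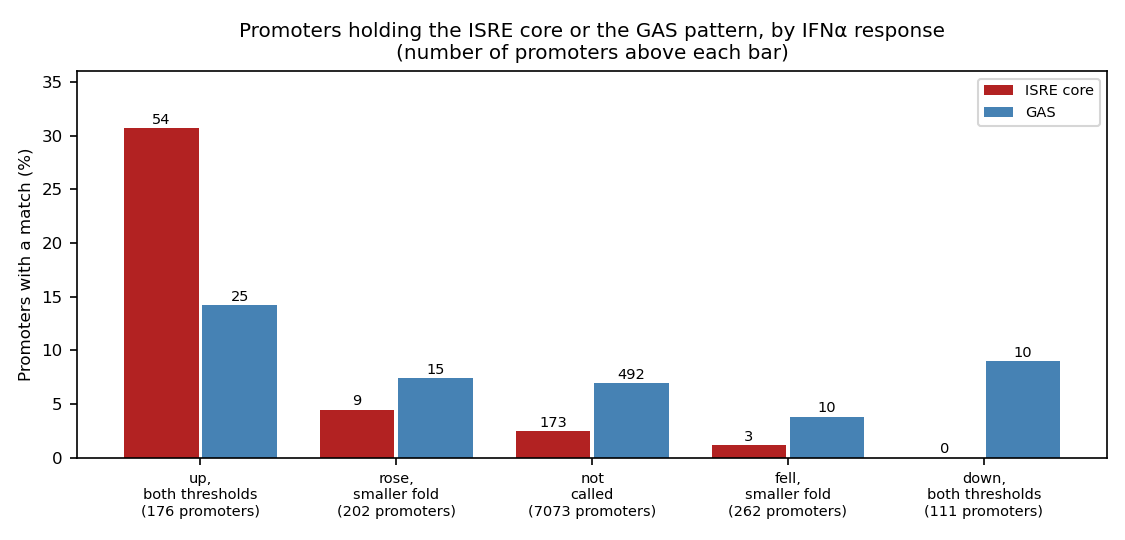
Percentage of RefSeq promoters with at least 1 match to the ISRE core (red) or the GAS pattern (blue), by the response of the gene to IFNα, with the number of such promoters above each bar. The ISRE core stands in 30.7% of promoters of upregulated genes and in 0% of those of downregulated genes, while the GAS pattern varies between 3.82% and 14.2%.

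Components that carry the signal rose in part. Of 13 tested signalling genes 5 rose and none fell, against 4.99% and 4.86% of all tested genes, and the list's median log2 fold change was 0.87 against -0.01 for all tested genes. STAT2 measured 219, 459, 631 and 472 CPM without cytokine and 1483, 2015, 2348 and 2348 CPM with IFNα, a log2 fold change of 2.20 ± 0.30 (SE, edgeR adjusted p = 3.82e-07). IRF9, its DNA-binding partner, rose from 8.03 ± 3.40 to 43.5 ± 9.97 CPM (SD, n = 4). Both had every IFNα library above every unstimulated one. The receptor chains did not pass the test, with IFNAR1 at 92.9 ± 1.94 and then 67.8 ± 16.1 CPM and IFNAR2 at 8.93 ± 2.36 and then 14.1 ± 2.55 CPM, nor did JAK1 at 136 ± 21.1 and 136 ± 20.9 CPM. IFNGR1, the ligand-binding chain of the IFNγ receptor, rose modestly (log2 fold change 0.74 ± 0.21, edgeR adjusted p = 0.0172). IRF1, a transcription factor that IFNγ induces strongly, rose from 5.05 to 15.1 CPM with overlapping groups (edgeR adjusted p = 0.0458). IRF7, below the filter, had 3, 0, 0 and 0 reads without cytokine and 13, 10, 8 and 0 with IFNα. Without unstimulated replicate 3, IRF1 and IFNGR1 no longer passed (edgeR adjusted p up to 0.26 and 0.0739 with 1 library left out) and 3 of 13 signalling genes rose. IRF1 also lost its call without IFNα replicate 2 or 4, or unstimulated replicate 2 or 4.

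Feedback inhibitors moved both ways. Of 7 tested, 2 rose (USP18, above, and SOCS2) and 1 fell, against 4.99% and 4.86% of all tested genes, with a median log2 fold change of 0.68, or 0.48 with genes at 3 reads or fewer in each unstimulated library set to their bound. SOCS2, a suppressor of cytokine signalling best known from growth hormone signalling, measured 11.3, 3.65, 21.8 and 34.8 CPM and then 49.0, 63.9, 78.6 and 115 CPM (edgeR adjusted p = 0.000259). PTPN11, the phosphatase SHP2, fell from 179 to 96.9 CPM (edgeR adjusted p = 3.2e-05). SOCS1, the classical inhibitor of JAK kinases, had 2 reads over the 4 IFNα libraries and none over the unstimulated ones, and was not tested.

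Most sensors of foreign nucleic acid rose. Of 12 tested 8 rose and none fell, against 4.99% and 4.86% of all tested genes, with a median log2 fold change of 2.51. RIGI, the cytosolic sensor of viral RNA ends, went from 30.8, 20.4, 21.8 and 21.2 CPM to 1412, 1429, 1335 and 1389 CPM, a log2 fold change of 5.86 ± 0.25 (SE, edgeR adjusted p = 1.76e-22). TLR3, the endosomal receptor for double-stranded RNA, rose from 3.62 to 138 CPM, the helicases DDX60 and DDX60L rose from 11.9 to 164 CPM and from 11.5 to 242 CPM, and the nuclear DNA sensor IFI16 rose from 181 to 1132 CPM. TRIM25, the ligase that activates RIGI, rose from 7.84 to 41.4 CPM, and the kinase TBK1 rose by 0.62 on the log2 scale (edgeR adjusted p = 0.0299, and up to 0.111 with 1 library left out, unstimulated replicate 2). MAVS, MYD88, STING1 and IKBKE did not pass the test. IFIH1 (MDA5), below the filter, had 0 reads in all 4 unstimulated libraries and 6, 8, 3 and 3 reads with IFNα. AIM2 likewise had 0 reads and then 3, 3, 9 and 6.

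Antiviral effectors were the list with the most members raised. Of 46 tested 41 rose, against 4.99% of all tested genes, and none fell. The 41 passed both thresholds with no overlap between groups, and the median log2 fold change of the 46 was 3.85. Over all 9513 tested genes, 759 had every IFNα library above every unstimulated one. MX1, a dynamin-like GTPase that traps incoming nucleocapsids, went from 2.45, 2.92, 2.11 and 0.683 CPM to 1151, 1089, 965 and 759.7 CPM, a log2 fold change of 8.85 ± 0.52 (SE, edgeR adjusted p = 2.49e-17). Its paralogue MX2 rose from 0.955 to 243 CPM, the exonuclease ISG20 from 3.17 to 437 CPM, and CMPK2, the mitochondrial nucleotide kinase encoded beside RSAD2, from 0.895 to 133 CPM. Smaller rises in genes with a sizeable resting level included the RNA-activated kinase EIF2AK2 (55.6 ± 12.7 to 288 ± 20.0 CPM), the restriction factor TRIM5 (81.7 ± 6.82 to 416 ± 38.2 CPM), IFITM3 (206 ± 37.1 to 1867 ± 322 CPM) and PLSCR1 (239 ± 10.6 to 1420.0 ± 138 CPM). BST2, the tether that holds budding virions at the membrane, rose from 0.683 to 215 CPM. Among the 5 tested members that did not pass were ZC3HAV1 (86.4 and 131 CPM), SLFN5 (92.5 and 67.2 CPM), SLFN11 (9.72 and 12.2 CPM) and APOBEC3C (289 and 363 CPM). Reads shared between close relatives (the IFIT, IFITM, OAS, APOBEC3 and HLA families) were divided by the authors' quantification, and the split between such relatives is uncertain.

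All 5 genes of ISG15 conjugation rose, against 4.99% of all tested genes. The activating enzyme UBA7 had the weakest call, at 0.979, 0, 0 and 2.05 CPM and then 9.92, 12.5, 13.5 and 5.60 CPM (edgeR adjusted p = 0.0166), and lost it without unstimulated replicate 2 or 3 (up to 0.0771). HERC5, the main ligase for ISG15, measured 0, 0.729, 0 and 1.37 CPM and then 189, 208, 205 and 237 CPM, and its relative HERC6 rose to 157 ± 41.1 CPM from 0.367 ± 0.734 CPM. The conjugating enzyme UBE2L6 went from 20.7 ± 10.0 to 448 ± 98.6 CPM. ISG15 itself, the ubiquitin-like modifier, had no read without cytokine and only 8.27, 11.9, 9.53 and 8.10 CPM with IFNα (edgeR adjusted p = 0.00266), and DESeq2 did not call it. The median log2 fold change of the 5 was 6.80, and 4.40 when genes whose unstimulated libraries were all at 3 reads or fewer were set to their bound. PARP9, PARP14 and DTX3L, which modify proteins by ADP-ribosylation and ubiquitin, rose from 21.0 to 327 CPM, from 82.7 to 1062 CPM and from 221 to 1743 CPM. PARP12, below the filter, had 0 reads in each unstimulated library and 10, 7, 15 and 11 reads with IFNα.

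Most genes of antigen presentation by MHC class I rose, while no tested class II gene did. Of 21 tested genes of class I loading and the immunoproteasome 17 rose, all past both thresholds, and 1 fell. Over all tested genes, 4.99% rose and 4.86% fell. The list's median log2 fold change was 2.51. HLA-B measured 26.9, 25.5, 27.4 and 27.3 CPM and then 420.4, 412, 381 and 392 CPM, a log2 fold change of 3.90 ± 0.20 (SE, edgeR adjusted p = 1.47e-19). HLA-C rose from 28.9 to 258 CPM, HLA-E from 31.0 to 303 CPM and HLA-F from 0.683 to 25.9 CPM. The peptide transporter subunits TAP1 and TAP2 rose from 2.97 to 53.7 CPM and from 3.06 to 48.7 CPM. Among immunoproteasome subunits PSMB9 rose from 23.0 to 626 CPM and PSMB8 from 10.1 to 98.9 CPM, and the activator subunit PSME2 rose from 148 to 1012 CPM. NLRC5, the transactivator of class I genes, rose from 2.61 to 28.0 CPM. The chaperone CANX fell by 0.48 ± 0.15 on the log2 scale (SE, edgeR adjusted p = 0.0363, and up to 0.146 with 1 library left out, unstimulated replicate 2), and TAPBPL, CALR and PDIA3 did not pass. PSMB8 overlaps an antisense gene, PSMB8-AS1, and no strand setting of the counting is given in the sources used here, so their reads cannot be told apart. None of the 5 tested MHC class II genes rose or fell. Of these 5, 4 had 3 reads or fewer in every library of at least 1 of the groups. Such genes can pass the filter through reads in other groups, and a fall could hardly be seen in them. The count is thus no test against the 4.99% and 4.86% of all tested genes. HLA-DRA had 0, 0, 0 and 2.49 CPM with IFNα, CD74, the invariant chain, had 2.20, 0, 4.77 and 0 CPM, and HLA-DMB had no read. Their median log2 fold change was 1.60, and 0 with genes at 3 reads or fewer set to their bound.

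The 5 guanylate-binding proteins, GTPases that attack pathogen-containing vacuoles, all rose, against 4.99% of all tested genes. GBP1 went from 229.6, 341, 319 and 275 CPM to 2089, 2135, 1884 and 2027 CPM (6.99-fold, edgeR adjusted p = 1.46e-17), GBP2 from 40.0 to 135 CPM and GBP3 from 99.8 to 363 CPM. GBP4 and GBP5 were at or near 0 without cytokine and reached 7.36 ± 3.07 and 11.6 ± 4.66 CPM. The list's median log2 fold change was 2.81, and 1.91 with genes at 3 reads or fewer set to their bound. In a fit of the unstimulated and IFNα libraries alone, GBP4 and GBP5 fell below the filter on low counts and 3 of the 5 rose.

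**Figure D3:**
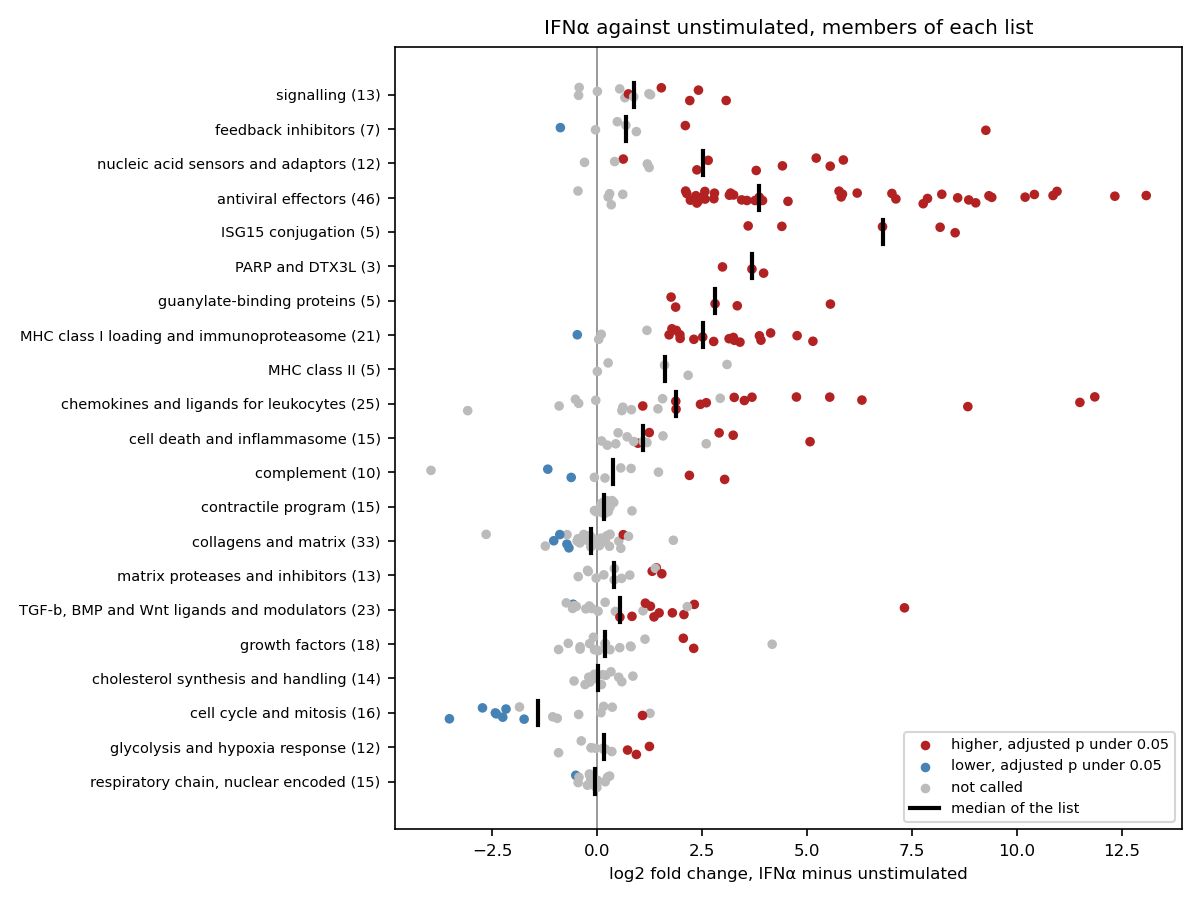
Fitted log2 fold change (which depends on the prior count where a group has no read) of every tested member of each gene list, IFNα minus unstimulated, with the number tested in brackets and the list's median as a black bar (red, rose; blue, fell; grey, not called at an edgeR adjusted p under 0.05). Antiviral effectors lie almost wholly to the right of 0, no contractile gene is called and the called cell cycle genes lie to the left, except CDKN1A.

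Signals that recruit and instruct leukocytes were raised selectively. Of 25 tested chemokines and ligands 14 rose and none fell, against 4.99% and 4.86% of all tested genes. The list's median log2 fold change was 1.88, or 1.55 with genes at 3 reads or fewer set to their bound. CXCL10, a ligand of CXCR3 on T cells, measured 0, 0, 2.81 and 6.15 CPM without cytokine and 5615, 5751, 7101 and 6807 CPM with IFNα (edgeR adjusted p = 1.92e-15). CXCL11, another CXCR3 ligand, measured 0, 0, 4.22 and 0 CPM and then 3937, 3772, 3685 and 4126 CPM. CXCL9, also a CXCR3 ligand, measured 2.20, 1.98, 0.794 and 1.87 CPM with IFNα and did not pass the test. Attractants of the CCL family rose too, with the monocyte attractants CCL2 going from 305 to 1845 CPM, CCL7 from 12.4 to 158 CPM, CCL8 from 4.24 to 112 CPM and the eosinophil attractant CCL11 from 73.6 to 709.9 CPM. CCL11 measured 91.6, 66.3, 64.0 and 72.4 CPM and then 634, 855, 757 and 593 CPM, with no overlap.

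Among neutrophil attractants only CXCL6 passed the test. It rose from 154 ± 54.0 to 326 ± 62.0 CPM (edgeR adjusted p = 0.00232), while CXCL1, CXCL2, CXCL3, CXCL5 and CXCL8 had log2 fold changes between -0.91 and 0.61. CXCL8 varied between libraries, at 23.0, 19.7, 85.1 and 554 CPM without cytokine and 58.4, 136, 384 and 443 CPM with IFNα. The B cell survival factor TNFSF13B (BAFF) went from 3.43, 9.48, 3.52 and 6.83 CPM to 387, 397, 481 and 552 CPM and TNFSF10 (TRAIL), a death ligand, from 0.122 to 109.9 CPM. The adhesion molecule VCAM1 rose from 53.4 to 197 CPM, IL6 from 9.34 to 51.4 CPM and PDCD1LG2 (PD-L2) from 20.0 to 73.4 CPM. CD274 (PD-L1) was at 30.8 ± 10.7 and then 53.9 ± 21.2 CPM and did not pass. IDO1, which degrades tryptophan, rose only to 22.9 ± 4.32 CPM from 2.07 ± 2.45 CPM.

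Among 15 tested genes of cell death and the inflammasome 5 rose, against 4.99% of all tested genes, and none fell. XAF1, an antagonist of an apoptosis inhibitor, rose from 15.7 to 526 CPM, the inflammatory caspases CASP1 and CASP4 from 174 to 1303 CPM and from 392 to 767 CPM, the death receptor FAS from 113 to 265 CPM, and the necroptosis effector MLKL from 3.75 to 35.7 CPM. TNFRSF10D, a decoy receptor for TRAIL, moved the other way and was among the 12 largest falls, at 33.3, 22.6, 16.2 and 29.4 CPM without cytokine and 0.551, 0.658, 6.36 and 2.49 CPM with IFNα (log2 fold change -3.40 ± 0.63, SE, edgeR adjusted p = 8.93e-05). Of 10 tested complement genes 2 rose and 2 fell, against 4.99% and 4.86% of all tested genes. Factor B (CFB) rose from 2.51 to 22.9 CPM, whereas the surface regulators CD55 and CD46 fell from 115 to 50.7 CPM and from 146 to 94.5 CPM. CFB lost its call when any of 6 libraries was left out, with an edgeR adjusted p of up to 0.136 without unstimulated replicate 4.

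No contractile gene passed the test. The 15 tested members had a median log2 fold change of 0.16. Over all tested genes, 4.99% rose and 4.86% fell. ACTA2, smooth muscle actin, measured 853, 636, 254 and 354 CPM without cytokine and 938, 806, 343 and 361 CPM with IFNα, a log2 fold change of 0.22 ± 0.37 (SE). In both groups replicates 1 and 2 were higher than replicates 3 and 4, and the groups overlapped. Each IFNα library lay above the unstimulated library of the same number, but the main fit assumed no pairing. MYLK, the kinase of myosin light chain, was at 1780.4 ± 439.9 and 1965 ± 654 CPM and TPM1 at 781 ± 109.7 and 996 ± 123 CPM.

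Most matrix genes did not pass the test. Of 33 tested collagens and matrix genes 4 fell, against 4.86% of all tested genes, and 1 rose, against 4.99%, none past the fold threshold, with a median log2 fold change of -0.16. COL3A1 measured 2050.2, 2656, 3113 and 2553 CPM and then 1532, 1745, 1557 and 1439.7 CPM, a fall of 0.73 ± 0.19 on the log2 scale (SE, edgeR adjusted p = 0.00603). COL1A2 fell from 2106 to 1316 CPM, COL14A1 from 247 to 120.2 CPM and the microfibril protein FBN1 from 484 to 259.9 CPM, with no overlap for any of the 4. In the list, 5 of 33 genes had every IFNα library below every unstimulated one, against 669 of 9513 tested genes. COL1A1 did not pass, and POSTN rose from 366 to 561 CPM with overlapping groups. FAP, a surface protease used as a marker of activated fibroblasts, fell from 116 to 46.7 CPM (edgeR adjusted p = 0.00521). COL1A2, COL3A1 and FAP were also the 3 of 10 fibroblast markers that fell, against 4.86% of all tested genes. Of 13 proteases and inhibitors 3 rose and none fell, against the same 4.99% and 4.86%. MMP1 rose from 548 to 1356 CPM, MMP10 from 165 to 438 CPM and tissue plasminogen activator (PLAT) from 129 to 374 CPM. Of 12 genes that the study used to mark inflammatory fibroblasts, 3 rose (CXCL6, MMP1 and IL11) and none fell. Over all tested genes, 4.99% rose and 4.86% fell. FAP, which the paper also names as a marker of inflammatory fibroblasts, was not among the 12 and fell, as given above. The list being the study's own, it is not independent evidence. With 1 library left out, 4 calls were lost, with the highest edgeR adjusted p for COL1A2 (0.114), POSTN (0.115), MMP10 (0.0588) and IL11 (0.0734) without IFNα replicate 4, unstimulated replicate 1, IFNα replicate 3 and IFNα replicate 4.

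Several modulators of TGF-β, BMP and Wnt signalling rose. Of 23 tested 10 rose, against 4.99% of all tested genes, and 1, the TGF-β binding protein LTBP1, fell (210.3 to 141 CPM), with a median log2 fold change of 0.54. DKK1, a secreted Wnt inhibitor, measured 111, 78.7, 146 and 174 CPM and then 305, 306, 345 and 458 CPM (log2 fold change 1.47 ± 0.24, SE, edgeR adjusted p = 9.68e-06). INHBA, the subunit of activin A, measured 44.6, 62.7, 59.1 and 66.3 CPM and then 125, 165, 317 and 365 CPM (edgeR adjusted p = 9.75e-08). Neither gene's groups overlapped. ID1 and ID3, inhibitors of helix-loop-helix factors and classical BMP targets, rose from 12.3 to 60.9 CPM and from 87.2 to 302 CPM, and BMP2 rose from 37.6 to 89.6 CPM with overlapping groups. The BMP antagonist GREM1 rose from 232 to 412 CPM, DKK3 from 47.4 to 105 CPM, and the matricellular genes CCN1 and CCN2 from 154 to 223 CPM and from 298 to 758 CPM. TGFB3 had no read without cytokine and 4.41, 11.9, 22.2 and 16.2 CPM with IFNα. WNT5A, at 2482 ± 1240.5 and 2263 ± 1036 CPM, did not pass. Of 18 growth factors 2 rose, against 4.99% of all tested genes, namely CSF1 (4.62 to 23.2 CPM) and AREG (21.3 to 87.3 CPM), the latter with overlapping groups. With 1 library left out, calls were lost for BMP2 (0.0826), CCN1 (0.0635), LTBP1 (0.236) and AREG (0.197), where the brackets give the highest edgeR adjusted p, without IFNα replicate 4, unstimulated replicate 4, IFNα replicate 1 and IFNα replicate 3.

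Genes of mitosis fell, and they made up most of the 12 largest falls. Of 16 tested cell cycle genes 7 fell, all past both thresholds, against 4.86% of all tested genes, and 1 rose. The list's median log2 fold change was -1.40. TOP2A, the topoisomerase that untangles replicated DNA, measured 194, 200.5, 144 and 179 CPM without cytokine and 17.6, 23.0, 9.53 and 11.2 CPM with IFNα, 11.5-fold lower (edgeR adjusted p = 2.07e-11). CDK1, the kinase that drives entry into mitosis, measured 120.5, 155, 108 and 136 CPM and then 28.7, 19.8, 23.0 and 24.3 CPM. The groups did not overlap in either gene. RRM2, a subunit of ribonucleotide reductase, fell from 133 to 19.5 CPM, MKI67 from 30.2 to 6.35 CPM, CCNB1 from 72.7 to 15.8 CPM, CCNB2 from 21.3 to 6.14 CPM and AURKA from 21.9 to 4.00 CPM. The replication genes MCM2, MCM3, MCM5 and PCNA and the G1 cyclin CCND1 did not pass, nor did CCNA2 (14.4 and 7.44 CPM), BUB1 (6.59 and 1.81 CPM) and TYMS (31.0 and 14.8 CPM, edgeR adjusted p = 0.0504). CDKN1A (p21), an inhibitor of cyclin-dependent kinases, rose from 22.6 to 48.0 CPM (edgeR adjusted p = 0.00862). With 1 library left out, calls were lost for CCNB2 (0.116), AURKA (0.053) and CDKN1A (0.0536), where the brackets give the highest edgeR adjusted p, without IFNα replicate 2 for the first pair and unstimulated replicate 4 for CDKN1A.

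Outside that list, the largest falls were again in genes of the spindle and of cell division. CENPF, a kinetochore protein, measured 86.7, 120.3, 81.6 and 83.3 CPM and then 6.61, 17.1, 10.3 and 5.60 CPM. PRC1, which bundles microtubules for cytokinesis, went from 44.1, 26.2, 31.0 and 28.7 CPM to 3.31, 2.63, 0 and 0.623 CPM, and IQGAP3, a scaffold of proliferating cells, from 38.7, 78.7, 87.2 and 77.9 CPM to 3.31, 4.61, 3.97 and 9.34 CPM. All 3 were without overlap, with edgeR adjusted p of 1.31e-09, 1.77e-07 and 4.98e-08. SPAG5, a spindle protein, had 10.3, 11.7, 8.44 and 7.51 CPM and then no read in any IFNα library, at least 4.81-fold lower against a floor of 3 reads, and the histone chaperone ASF1B at least 2.65-fold lower. DLGAP5 fell from 17.1 to 1.70 CPM. The kinetochore scaffold KNL1 measured 18.1, 7.29, 3.52 and 4.10 CPM without cytokine, where replicate 1 stood far above the rest, and 0, 0.658, 0 and 0 CPM with IFNα. KIF2C, NEK2 and MND1, at between 7.37 and 8.12 CPM on average without cytokine, had 3 or fewer reads in each IFNα library. MND1 lost its call without IFNα replicate 2, 3 or 4 or unstimulated replicate 4 (edgeR adjusted p between 0.0589 and 0.0954), and KNL1 without unstimulated replicate 1 (0.0543).

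In absolute level, the greatest loss was that of RAB3B, a small GTPase of vesicle exocytosis, from 873, 1062, 1221 and 1011 CPM to 226, 302, 343 and 394 CPM, 3.29-fold lower (edgeR adjusted p = 3.93e-06). H4C3, a replication-dependent histone H4 gene, measured 406, 284, 269 and 278 CPM and then 60.6, 54.0, 54.8 and 50.4 CPM. Both fell without overlap. Further losses were in WWTR1 (TAZ), the Hippo pathway coactivator (247 ± 84.3 to 77.1 ± 26.3 CPM), PRKCA, protein kinase C alpha (239 ± 72.1 to 61.4 ± 12.1 CPM), SLC7A11, the cystine importer (212 ± 42.3 to 71.3 ± 17.8 CPM), and LNPK, which shapes the endoplasmic reticulum (403 ± 104 to 141 ± 28.8 CPM). RFLNB, PDZD8 and TTC3 completed the 10 together with TOP2A, falling from 235 to 69.4 CPM, from 248 to 87.6 CPM and from 219 to 75.7 CPM.

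Metabolic lists differed in their counts, read against 4.99% of all tested genes that rose and 4.86% that fell. None of 14 cholesterol genes passed the test, with a median log2 fold change of 0.03. Of 12 glycolysis and hypoxia genes 3 rose (HK2 from 128 to 243 CPM, ADM from 25.5 to 61.2 CPM and BNIP3 from 102 to 169 CPM), each with overlapping groups. Of 15 nuclear respiratory chain genes only NDUFA4, of the cytochrome oxidase complex, fell, from 982 to 688 CPM. Each of these 4 calls was lost with at least 1 library left out, with the highest edgeR adjusted p for HK2 (0.073), BNIP3 (0.156) and NDUFA4 (0.0736) without IFNα replicate 4 and for ADM (0.106) without unstimulated replicate 3.

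The 2 interferons were then compared directly within the same fit. At an adjusted p under 0.05, 469 genes (4.93%) were higher with IFNα than with IFNγ and 424 genes (4.46%) were lower. Of the 234 genes upregulated by IFNα, 93 were higher than with IFNγ, 22 were lower and 119 did not pass the test of the difference. None of the 145 downregulated genes was higher with IFNα than with IFNγ, 62 were lower with IFNα, and 83 did not pass. These splits use genes chosen with the same IFNα libraries and are a description.

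Most antiviral effectors were higher with IFNα. Of 46 tested 32 were higher with IFNα, against 4.93% of all tested genes, and 1, SLFN11, was higher with IFNγ. RSAD2 measured 0.753, 4.15, 0 and 0.712 CPM with IFNγ, with an IFNα minus IFNγ log2 difference of 8.99 ± 0.52 (SE, edgeR adjusted p = 1.66e-12). HERC5 measured 1.51, 0, 1.73 and 0 CPM with IFNγ (edgeR adjusted p = 2.55e-10), 3 reads or fewer in every library, so no fold is given. IFIT1 reached 340.5, 487, 148 and 129.6 CPM with IFNγ, below every IFNα library. By contrast B2M was at 14372 ± 1149.7 CPM with IFNγ and CXCL10 at 5729.7 ± 2044 CPM, and their differences from IFNα were 0.02 and 0.14 on the log2 scale and did not pass (SE 0.13 and 0.46). Of the 12 largest differences, CSAG3, a cancer-testis gene, had no read with IFNγ or without cytokine and 20.9, 18.4, 13.5 and 13.7 CPM with IFNα. PRSS35 and BTF3L4P2 were higher with IFNα than with IFNγ but did not differ in the test against unstimulated cells, with means of 2.20 and 4.77 CPM without cytokine, 7.96 and 6.41 CPM with IFNα and 0 with IFNγ. OASL was at 1.78 CPM with IFNγ. BTF3L4P2, a pseudogene, lost its call when any of 6 libraries was left out (edgeR adjusted p between 0.0554 and 0.0761).

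IFNγ gave the higher level for class II genes and for part of several other lists. Of 21 genes of class I loading and the immunoproteasome 4 were higher with IFNγ and 1 with IFNα. Of 12 glycolysis and hypoxia genes 4 were higher with IFNγ and 0 with IFNα. Over all tested genes the shares were 4.46% and 4.93%. All 4 glycolysis calls (ENO1, GAPDH, LDHA and PGK1) were lost with at least 1 library left out. All 5 tested MHC class II genes were higher with IFNγ, with CD74 at 339.7, 158, 517 and 623 CPM and HLA-DRA at 169, 160.3, 223 and 249 CPM. Only 5 of the 10 list members were tested, and 4 of those 5 were at or near 0 in every unstimulated library. Such genes pass the filter on low counts through reads in other groups, which include IFNγ. The filter thus partly fixed this count, and it is no test against the 4.46% of all tested genes. The 5 guanylate-binding proteins were also all higher with IFNγ, among them GBP1 at 8474 ± 1446 CPM against 2034 ± 109 CPM (edgeR adjusted p = 8.34e-13). IDO1 measured 1747, 1450.3, 2598 and 2387 CPM with IFNγ, a log2 difference of -6.48 ± 0.58, CXCL9 measured 158, 164, 174 and 189 CPM, and IRF1 measured 121 ± 7.01 CPM against 15.1 ± 9.38 CPM with IFNα. CLIC2, TEX29 and HLA-DMB had no read with IFNα and means of 26.4, 9.94 and 30.7 CPM with IFNγ.

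**Figure D4:**
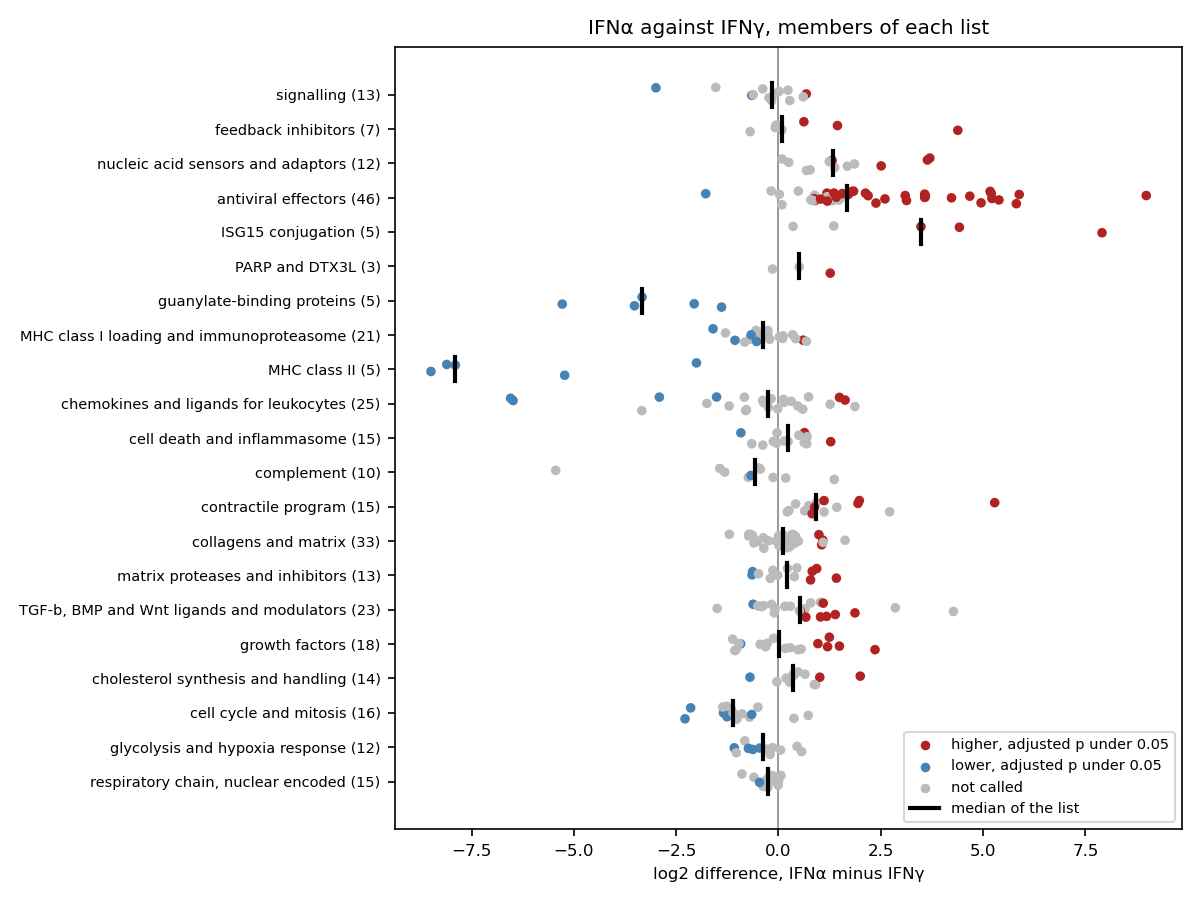
Log2 difference of every tested member of each gene list, IFNα minus IFNγ, with the number tested in brackets and the median as a black bar (red, higher with IFNα; blue, higher with IFNγ; grey, not called at an edgeR adjusted p under 0.05). Antiviral effectors and ISG15 conjugation lie mostly to the right, guanylate-binding proteins and MHC class II to the left.

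Some contractile genes, growth factors and signalling modulators were also higher with IFNα than with IFNγ. Such a difference need not be a rise with IFNα against unstimulated cells. Of 33 collagens and matrix genes 3 were higher with IFNα and 0 lower, against 4.93% and 4.46% of all tested genes. Of 10 fibroblast markers 0 were higher and 1 was lower, too few genes to read against those shares. Of 15 contractile genes 6 were higher with IFNα than with IFNγ (8 with a replicate block) and none was lower, against 4.93% and 4.46% of all tested genes. None of these 15 rose or fell with IFNα against unstimulated cells. ACTA2 measured 235, 197, 116 and 74.8 CPM with IFNγ, a log2 difference of 1.98 ± 0.39 (SE, edgeR adjusted p = 0.000364), and MYLK 816, 668, 277 and 283 CPM, a difference of 1.94 ± 0.27. CALD1, TPM1, ACTG2 and the calcium pump regulator PLN were the others, of which ACTG2 lost its call when any of 5 libraries was left out (edgeR adjusted p up to 0.239, without IFNα replicate 1). Of 18 growth factors 1 was lower and 5 were higher with IFNα, among the latter IGF1 at 207 ± 28.1 CPM against 40.3 ± 16.6 CPM. Of 23 TGF-β, BMP and Wnt modulators 7 were higher with IFNα, against the same 4.93%, and 1 was lower, with DKK1 at 353 ± 72.2 CPM against 96.5 ± 19.8 CPM (edgeR adjusted p = 2.73e-07) and GREM1 at 412 ± 57.7 against 182 ± 29.0. CCL11 was at 709.9 ± 119 CPM with IFNα and 253 ± 54.1 CPM with IFNγ (edgeR adjusted p = 0.000375). Of 16 cell cycle genes 6 were lower with IFNα than with IFNγ, against 4.46% of all tested genes, with TOP2A at 123, 59.8, 62.4 and 57.7 CPM and RRM2 at 88.0 ± 19.8 CPM under IFNγ. RAB3B measured 703, 1062, 315 and 301 CPM with IFNγ, with replicates 1 and 2 far above the other two.

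**Figure D5:**
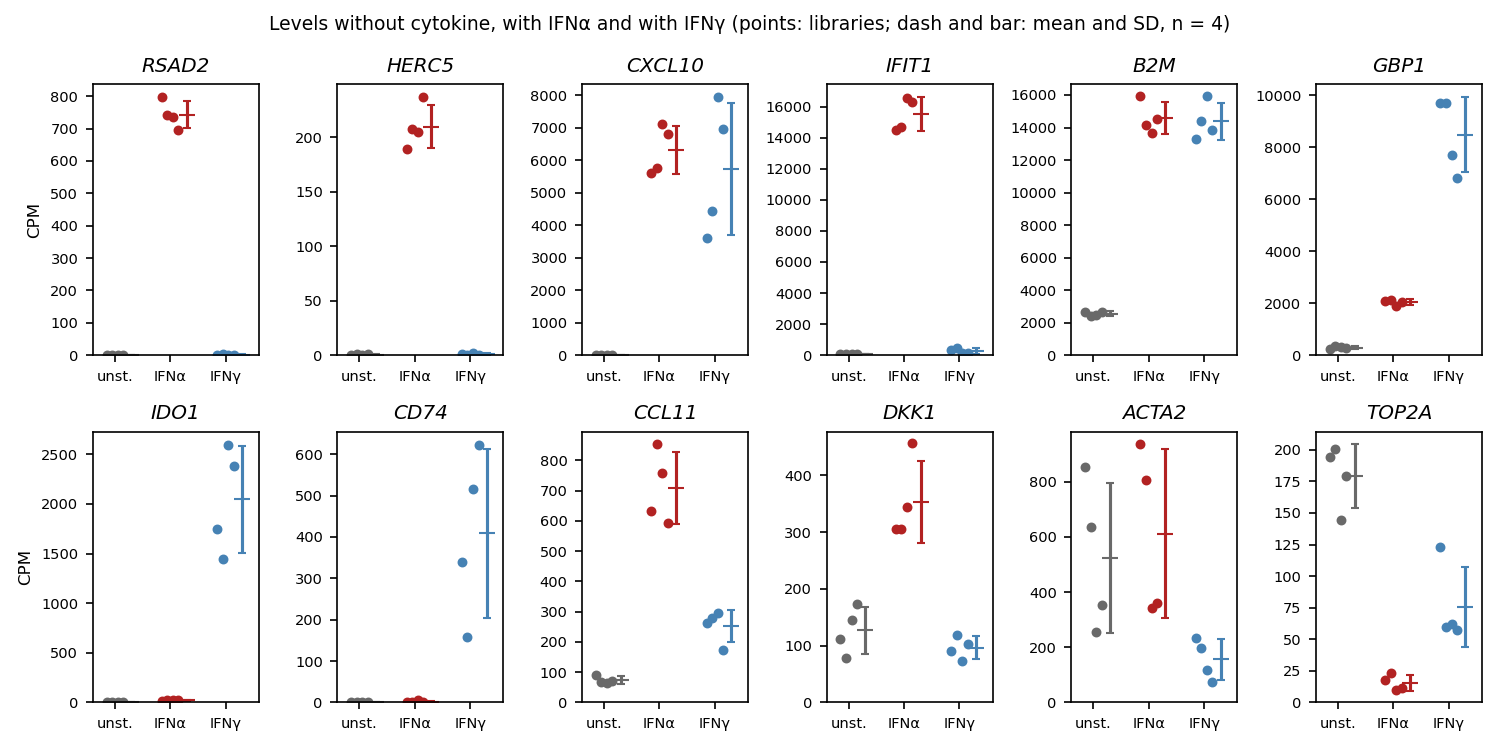
Level in CPM of 12 genes without cytokine (grey), with IFNα (red) and with IFNγ (blue), each library as a point and the mean with its SD as a dash and bar (n = 4 per group), on axes that start at 0. RSAD2, HERC5 and IFIT1 are highest with IFNα, IDO1 and CD74 with IFNγ, CXCL10 and B2M are high with both, and ACTA2 is lowest with IFNγ.

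Genes upregulated by IFNα often lay side by side in the genome. Of the 234, 74 (31.6%) had another upregulated gene within 100 kb (GENCODE 44, hg38), against 4.22% of the other tested genes with a position, and of 144 downregulated genes with a position 12 (8.33%) had a downregulated neighbour, against 2.82%. The largest runs were the 5 GBP genes at chr1:89006679-89272860 and TAP2, PSMB8, PSMB8-AS1, PSMB9 and TAP1 at chr6:32821833-32859851. The 4 IFIT genes lay at chr10:89283694-89421605, the CCL genes CCL2, CCL7, CCL11 and CCL8 at chr17:34255274-34321402, OAS1, OAS3 and OAS2 at chr12:112905856-113011723, and PSME1, PSME2 and IRF9 at chr14:24136163-24168043. A run at chr4:88257620-88506163 held PPM1K, HERC6 and HERC5. Many neighbours in these runs belong to 1 gene family and are not independent observations.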

How the data were processed

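RNA of Ccd-18Co was sequenced in 44 libraries, 4 in each of 11 groups. The authors estimated counts per transcript with kallisto 0.48.0 on hg38 (per the submitters' processing notes) and deposited estimated counts per gene symbol, of which 5.73% were not whole. Strand setting and annotation are not given in the sources used here. Counts were rounded and fitted in R 4.3.3 with edgeR 4.0.16 (TMM scaling, filterByExpr, quasi-likelihood test, Benjamini-Hochberg adjustment over 9513 of 40663 symbols). All 44 libraries entered 1 model with a coefficient per group, so that the groups shared an estimate of the spread. The contrasts were IFNA minus unstimulated and IFNA minus IFNG, and both use the same IFNA libraries. Thresholds were an adjusted p of 0.05 and, where stated, an absolute log2 fold change above 1.5. A ± after a level is the SD over 4 libraries, and after a log2 value it is an SE worked back from the test. That SE is the absolute log2 value divided by the square root of the edgeR F statistic. It can differ from the SE of the fitted coefficient, above all for large changes. A floor of 3 counts per library was used where a group had no read. It covers counting error only.

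Gene lists and named genes were chosen with earlier results of these data known. Named genes were list members, the 12 largest rises and falls in log2, the 10 largest gains and losses in CPM, and the 6 largest differences from IFNG in either direction, among genes past both thresholds with no overlap between groups and a mean log2 CPM of at least 1. The method was tested on simulated data in which all genes shared the same spread and only genes of higher level were changed. That test does not cover genes with few reads. Replicates of a group were compared pairwise, and none were identical. Deviations of same-numbered unstimulated and IFNα libraries correlated weakly, at 0.277, 0.021, 0.096 and 0.081 for replicates 1 to 4. The mean correlation with other numbers was below 0 for each replicate. Deviations were taken from each group's own mean, which largely fixes that sign, so it is no separate evidence on pairing. The main fit assumed no pairing, and the replicate block below is the alternative that allows for it. Alternatives were DESeq2 1.42.0, its size factors, other filters and thresholds, the libraries of both groups alone, a replicate block and leaving out each library. Some members of these lists are not reported here by name.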

Additional observations from a re-analysis of the deposited data

Results flagged for a closer look

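Levels of the named rises, falls, gains and losses, library totals and TMM factors were checked for a library standing apart from the others. Dixon's criterion was used (its gap to the nearest of the others relative to the whole range). Of 82 sets of 4 libraries 9 met it, all of them levels of genes. The criterion flags about 1 in 20 sets of normally distributed values. That rate does not hold for genes with few reads, since a set with reads in only 1 library always meets it. In 7 of the 9 the other libraries had no read: CXCL11 measured 4.22 CPM in unstimulated replicate 3, IFI44L 2.19 CPM and IFI44 1.46 CPM in unstimulated replicate 2, and USP18 0.979 CPM in unstimulated replicate 1. With IFNα, KNL1 measured 0.658 CPM in replicate 2, KIF2C 0.551 CPM in replicate 1 and NEK2 0.623 CPM in replicate 4. In genes with more reads, CENPF measured 120.3 CPM in unstimulated replicate 2 against 81.6 to 86.7 CPM in the others. H4C3 measured 406 CPM in unstimulated replicate 1 against 269 to 284 CPM in the others. None of the 9 values lay within the range of the opposite group.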

How the results depend on the processing

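Leaving out 1 library at a time gave between 207 and 244 upregulated and between 122 and 152 downregulated genes, between 403 and 482 that rose and between 355 and 487 that fell, between 324 and 505 higher with IFNα than with IFNγ and between 314 and 448 lower. No named gene reversed under an alternative that gave it a value. DESeq2 gave 45 of the 51 named results a value and the fit of the compared groups alone 44, the latter leaving out ASF1B, KNL1, KIF2C and NEK2 against unstimulated cells. With an absolute log2 fold change above 1, 273 genes were downregulated. With the libraries of the compared groups alone, 280 genes were higher with IFNα than with IFNγ and 235 lower, and 3 guanylate-binding proteins rose, GBP4 and GBP5 falling below the filter. With DESeq2, 3 MHC class II genes were higher with IFNγ, and OASL (both contrasts), HLA-DRA and CXCL9 against IFNγ lost their calls, as did 6 of 147 called list members against unstimulated cells (AREG, CFB, GBP5, IDO1, ISG15 and OASL). Signalling genes that rose numbered between 3 and 6 with 1 library left out, 3 without unstimulated replicate 3, and antiviral effectors 41 each time. Against IFNγ, ISG15 lost its call whichever library was left out. The ISRE core followed by C stood in 17.6% of promoters of upregulated genes and in 0.97% of all tested genes. With a replicate block 234 genes were upregulated, 228 of them shared, and 144 downregulated, 140 shared. CFB and IRF1 then lost their calls, and 2 of 4 libraries correlated best with their own number. The causes of these changes were not tested. Depth limits calls among low genes: 3 reads correspond to about 1.95 CPM without cytokine, and 39 upregulated genes had no unstimulated library above 3 reads.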

Other observations

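Further gene families were picked from symbols after the calls had been seen, and their counts are given as values only, beside 4.99% of all tested genes that rose and 4.86% that fell. Of 44 tested centromere, kinetochore and kinesin genes 19 fell and 1 rose, with a median log2 fold change of -1.41. Of 20 histone genes 9 rose, among them the cluster genes H2BC4, H2BC5, H2AC6 and H4C8, and 4 fell (H2AZ1, H2AZ2, H3-3A and H4C3), with a median of 1.35. Reads shared between near-identical histone genes were divided by the quantification, and that split is uncertain.

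Of 81 cytosolic ribosomal protein genes 13 fell and none rose, with a median log2 fold change of -0.27, whereas of 76 mitochondrial ribosomal protein genes 7 rose and none fell, with a median of 0.18. Of 19 cytosolic aminoacyl-tRNA synthetases, which charge tRNAs, 5 fell (EPRS1, GARS1, IARS1, LARS1 and NARS1) and 2 rose, WARS1 among them. Of 7 argonaute and TNRC6 genes, the effectors of microRNA silencing, 3 fell (AGO1, AGO2 and TNRC6B) and none rose. Of 14 constitutive proteasome core subunits 6 rose and none fell, with a median of 0.46. These counts were the same with DESeq2 size factors, except that 7 proteasome subunits rose.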
